A study of Mus musculus with 15 samples.

Results

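Fibronectin, the integrin subunits that make up its receptors and related matrix receptors, and the adhesion molecule Vcam1 were followed across 5 related mouse mammary epithelial cell lines. The set was taken as all probe sets whose single gene symbol was Fn1, Itga5, Itgav, Itga3, Itga2, Itgb1, Itgb3, Itgb5, Itgb6 or Vcam1. It held 32 probe sets of 10 genes, out of 34945 probe sets with a single symbol for 18193 genes. No probe set with several symbols named any of the 10. Affymetrix arrays for mouse genes gave the RNA signals, from 3 arrays per line and 15 in all. E1KD is the NMuMG line in which the RNA-binding protein hnRNP E1, the product of Pcbp1, was silenced, without selection in mice. M1P cells were recovered from a mammary tumour that E1KD had formed, after 1 passage. L1P came from a lung metastasis after 1 passage, and L2P from a lung metastasis after passage 2. NMuMG is the wild-type parental line, from normal mouse mammary gland, without selection in mice. All 5 lines thus share the NMuMG origin, and the 4 lines other than NMuMG share the silencing. E1KD cells were injected into the mammary fat pad of NOD/SCID mice, which lack functional T and B cells. Each line is 1 line, no control vector line is among the samples analysed here, and it is not stated whether the replicates of a line were grown separately. The p-values therefore measure the spread between arrays, which may be technical.

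Fibronectin is a large secreted glycoprotein that cells assemble into fibrils of the extracellular matrix, and its rise in epithelial cells is a widely used sign of a shift to a mesenchymal state. Integrins are receptors made of 1 alpha and 1 beta subunit. The pair of Itga5 and Itgb1 is the main receptor for fibronectin assembly. Itgav pairs with Itgb1, Itgb3, Itgb5 or Itgb6, and these receptors bind fibronectin, vitronectin and, in the pair with Itgb6, the latent form of TGF-beta. Itga2 and Itga3 also pair with Itgb1 but are known chiefly as receptor subunits for collagen and laminin. Vcam1 is a cell surface protein of the immunoglobulin superfamily that is bound by integrins of leukocytes.

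The 10 genes lie at the following places in GRCm38.p6. Fn1 is at chr1:71585473-71653280, Vcam1 at chr3:116110020-116129688, Itga5 at chr15:103344286-103366791 and Itga2 at chr13:114833081-114932100. Itgav at chr2:83722303-83806917 and Itgb6 at chr2:60598292-60722603 share a chromosome. Itga3 at chr11:95044475-95076844 and Itgb3 at chr11:104608000-104670476 also do. Itgb1 is at chr8:128685654-128733579 and Itgb5 at chr16:33829665-33949338.

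Values are the log2 signals deposited by the authors. A level is the mean of the 3 arrays of a line ± SD, and a difference is given on the log2 scale ± its standard error. For each gene the brightest probe set, by its mean over all arrays, was used unless another is named. A gene is said to have risen or fallen where limma's adjusted p was under 0.05, with Benjamini-Hochberg adjustment over all 18193 genes. Pcbp1 lay at log2 signals of 7.95 to 10.09 in the arrays of the silenced lines and of 12.57 to 12.76 in the NMuMG arrays, without overlap. Arrays of M1P were more scattered than those of the other lines: they correlated with each other at 0.93 to 0.978 over all probe sets, against at least 0.979 within each of the other lines. The upper quartile of log2 signal was 6.33 in M1P array 1 and 6.64 to 6.86 in the other arrays. For the members in M1P relative to E1KD and NMuMG, and for list genes named in M1P relative to E1KD, values with array 3 as the only M1P array are given too. This choice was made with earlier results of these data known. The upper quartile does not set M1P array 2 (6.64) apart from array 3 (6.67). A single array shows no spread of its own, so a difference that does not pass there may only lack precision.

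Of the 10 genes, 4 differed among the 5 lines by limma's F test: Fn1 (adjusted p = 8e-05), Itgb6 (0.00156), Vcam1 (0.00626) and Itgav (0.0259). Among all genes tested, 31.8% did so. The other 6 had adjusted p values between 0.0692 for Itgb5 and 0.457 for Itgb3.

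The largest member difference over the 9 comparisons was that of Fn1 in E1KD relative to NMuMG. In the E1KD arrays Fn1 had log2 signals of 10.06, 9.11 and 9.60, against 5.97, 6.36 and 5.66 in the NMuMG arrays. The lowest E1KD array thus lay well above the highest NMuMG array. Fn1 rose by 3.59 ± 0.34, or 12.0-fold, in E1KD relative to NMuMG (adjusted p = 1.85e-05). In bulk RNA, more or fewer cells of a type and more or less RNA per cell cannot be told apart. Vcam1 had log2 signals of 7.42, 7.83 and 8.36 in the E1KD arrays, against 5.47, 5.48 and 6.16 in the NMuMG arrays, again without overlap. Its rise was 2.17 ± 0.36, or 4.49-fold (adjusted p = 0.0019). These were the only members that passed: 2 of 10 rose and 0 fell, where 3.00% of all genes rose and 6.49% fell. The median difference was 0.51 over the 10 genes and -0.07 over all genes.

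**Figure D1:**
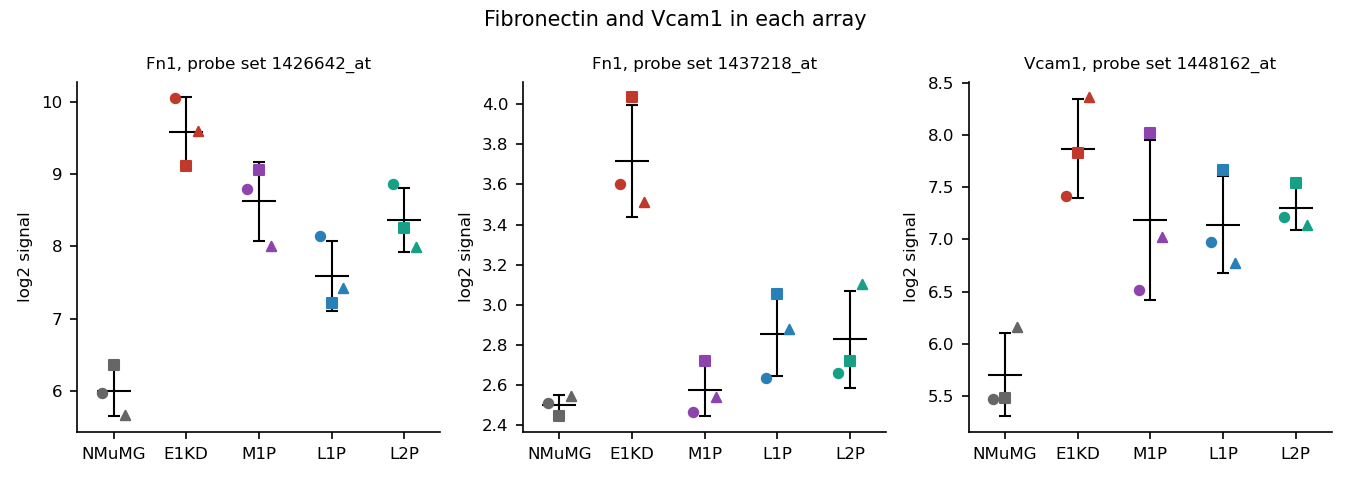
Log2 signal (vertical axes) of both Fn1 probe sets and of the main Vcam1 probe set in each array of the 5 lines (horizontal axes). Circles, squares and triangles are arrays 1, 2 and 3 of a line, horizontal bars the mean and vertical bars the SD (n = 3). Fn1 averaged 9.59 in E1KD and 6.0 in NMuMG on probe set 1426642_at, and the passaged lines lie between them.

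In the passaged lines Fn1 lay above NMuMG and below E1KD. The Fn1 signals were 8.79, 9.06 and 8.01 in the M1P arrays, 8.14, 7.21 and 7.43 in the L1P arrays and 8.86, 8.25 and 8.0 in the L2P arrays. All 9 passaged arrays were above all NMuMG arrays and below all E1KD arrays. Relative to NMuMG, Fn1 rose in M1P by 2.62 ± 0.34 (adjusted p = 0.000242), in L1P by 1.60 ± 0.34 (adjusted p = 0.00637) and in L2P by 2.37 ± 0.34 (adjusted p = 0.000356). Relative to E1KD it fell in L1P by 1.99 ± 0.34, or 3.98-fold (adjusted p = 0.00532). The differences of -0.97 ± 0.34 in M1P (adjusted p = 0.0518) and -1.22 ± 0.34 in L2P (adjusted p = 0.0773) relative to E1KD did not pass. With array 3 alone for M1P, Fn1 differed by -1.58 from E1KD (adjusted p = 0.0599) and by 2.01 from NMuMG (adjusted p = 0.0135). Without M1P array 2 the difference from E1KD was -1.19 (adjusted p = 0.0374).

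In order of level, Fn1 averaged 9.59 ± 0.47 in E1KD, 8.62 ± 0.55 in M1P, 8.37 ± 0.44 in L2P, 7.59 ± 0.49 in L1P and 6.0 ± 0.35 in NMuMG (SD, n = 3). Neighbours in the middle of this order were not separated. The M1P and L2P arrays overlapped and were not tested against each other, and L2P and L1P differed by 0.78 ± 0.34, with an adjusted p of 1 and a 95% interval of 0.03 to 1.52. On the main probe set L1P fell relative to M1P, by 1.03 ± 0.34 (adjusted p = 0.0337), but the difference was -0.42 with array 3 alone for M1P. The other Fn1 probe set, 1437218_at, differed by 0.28 ± 0.16 (adjusted p = 0.182), in the opposite direction. With the mean of both probe sets the difference was -0.37 (adjusted p = 0.0649).

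The 2 Fn1 probe sets gave the same direction for silencing and a different picture of the passaged lines. The second one, 1437218_at, had low signals: 3.60, 4.03 and 3.51 in the E1KD arrays, against 2.51, 2.44 and 2.54 in the NMuMG arrays. It rose by 1.22 ± 0.16 in E1KD relative to NMuMG (adjusted p = 0.000505 over the 45037 probe sets tested). Relative to E1KD it fell in each passaged line, with differences of -1.14 ± 0.16 in M1P (adjusted p = 0.00166), -0.86 ± 0.16 in L1P (adjusted p = 0.0161) and -0.89 ± 0.16 in L2P (adjusted p = 0.00989). Relative to NMuMG its differences of 0.07 in M1P (adjusted p = 0.816), 0.36 in L1P (adjusted p = 0.196) and 0.33 in L2P (adjusted p = 0.26) did not pass, unlike those of the first probe set. The signal of this probe set lies near the lowest values of the arrays, where differences are compressed. When the mean of both probe sets stood for the gene, Fn1 also fell relative to E1KD in M1P and L2P, with a difference of -1.05 in each (adjusted p = 0.00129 for M1P and 0.00117 for L2P).

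On its main probe set, Vcam1 lay above NMuMG in every silenced line. Its log2 signals were 6.52, 8.02 and 7.03 in the M1P arrays, 6.98, 7.67 and 6.78 in the L1P arrays and 7.22, 7.54 and 7.14 in the L2P arrays, all above the highest NMuMG array. Relative to NMuMG it rose by 1.48 ± 0.36 in M1P (adjusted p = 0.019), by 1.44 ± 0.36 in L1P (adjusted p = 0.0171) and by 1.60 ± 0.36 in L2P (adjusted p = 0.00903). On M1P array 3 alone the difference was 1.32 (adjusted p = 0.0639), and without M1P array 2 it was 1.07 (adjusted p = 0.0547). Without NMuMG array 1 or 2 the adjusted p was 0.0711 or 0.0676 for M1P and 0.0687 or 0.0681 for L1P, and without L1P array 2 the L1P difference was 1.17 (adjusted p = 0.0794). Relative to E1KD the differences of -0.68 in M1P (adjusted p = 0.156), -0.73 in L1P (adjusted p = 0.564) and -0.57 in L2P (adjusted p = 0.716) did not pass, with 95% intervals that reach -1.47, -1.52 and -1.36. Without M1P array 2, the highest of that line, Vcam1 differed by -1.10 between M1P and E1KD (adjusted p = 0.0318), and on array 3 alone by -0.84 (adjusted p = 0.25). Levels averaged 7.87 ± 0.47 in E1KD, 7.30 ± 0.21 in L2P, 7.19 ± 0.76 in M1P, 7.14 ± 0.47 in L1P and 5.70 ± 0.40 in NMuMG. No pair of silenced lines that was compared passed, and NMuMG lay lowest.

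Of the other Vcam1 probe sets, 1415989_at rose in E1KD relative to NMuMG by 0.98 ± 0.23 (adjusted p = 0.0206), and the difference of 0.55 ± 0.21 on 1451314_a_at did not pass (adjusted p = 0.171). Neither of them passed in the passaged lines relative to NMuMG. On 1415989_at the differences were 0.54 in M1P (adjusted p = 0.172), 0.17 in L1P (adjusted p = 0.679) and 0.40 in L2P (adjusted p = 0.327), and on 1451314_a_at they were 0.65 in M1P (adjusted p = 0.0855), 0.17 in L1P (adjusted p = 0.657) and 0.57 in L2P (adjusted p = 0.122). In all, 4 of the 32 probe sets rose in E1KD and 0 fell, where 2.09% of all probe sets rose. When the mean of its probe sets stood for the gene, the Vcam1 difference between L1P and NMuMG was 0.59 (adjusted p = 0.0992).

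No integrin subunit of the set passed limma's test between E1KD and NMuMG, and 1 of the 8, Itga3, had an unadjusted p under 0.05. Itga5, the alpha subunit of the main fibronectin receptor, had low log2 signals of 4.96, 4.40 and 4.43 in the E1KD arrays, against 4.60, 4.59 and 4.59 in the NMuMG arrays. The groups overlapped, and the 95% interval of the difference ran from -0.46 to 0.47 (adjusted p = 0.994). Its partner Itgb1 had 10.23, 9.996 and 9.81 in the E1KD arrays, against 9.31, 9.31 and 9.69 in the NMuMG arrays, without overlap. The Itgb1 difference of 0.58 ± 0.60 nevertheless had an adjusted p of 0.65, since the fit shares 1 estimate of spread over all lines and the M1P arrays spread by an SD of 1.82. With only E1KD and NMuMG in the model the standard error was 0.16 and the adjusted p 0.0381. Itga3, a laminin receptor subunit, had 8.90, 8.36 and 8.58 in the E1KD arrays, against 8.15, 8.15 and 7.70 in the NMuMG arrays. These arrays did not overlap either, and the difference of 0.61 ± 0.28 had an adjusted p of 0.227.

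The remaining subunits differed by less than 0.7 in either direction between E1KD and NMuMG. Itgav, the alpha subunit shared by the vitronectin-type receptors, averaged 10.77 ± 0.20 in E1KD and 10.28 ± 0.30 in NMuMG (adjusted p = 0.587). Itgb5 averaged 8.08 ± 0.28 in E1KD and 7.56 ± 0.27 in NMuMG (adjusted p = 0.402). Lower averages in E1KD were seen for Itga2, at 6.04 ± 0.22 against 6.43 ± 0.16 in NMuMG (adjusted p = 0.373), Itgb3, at 5.90 ± 0.61 against 6.50 ± 0.32 in NMuMG (adjusted p = 0.368), and Itgb6, at 6.91 ± 0.21 against 7.23 ± 0.46 in NMuMG (adjusted p = 0.555). None of these 5 differences passed. Itgb3, which forms a receptor of vitronectin and fibronectin with Itgav, overlapped between all pairs of lines compared. Its arrays ran from 5.11 to 6.86, and its adjusted p was at least 0.275 in the 9 comparisons.

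**Figure D2:**
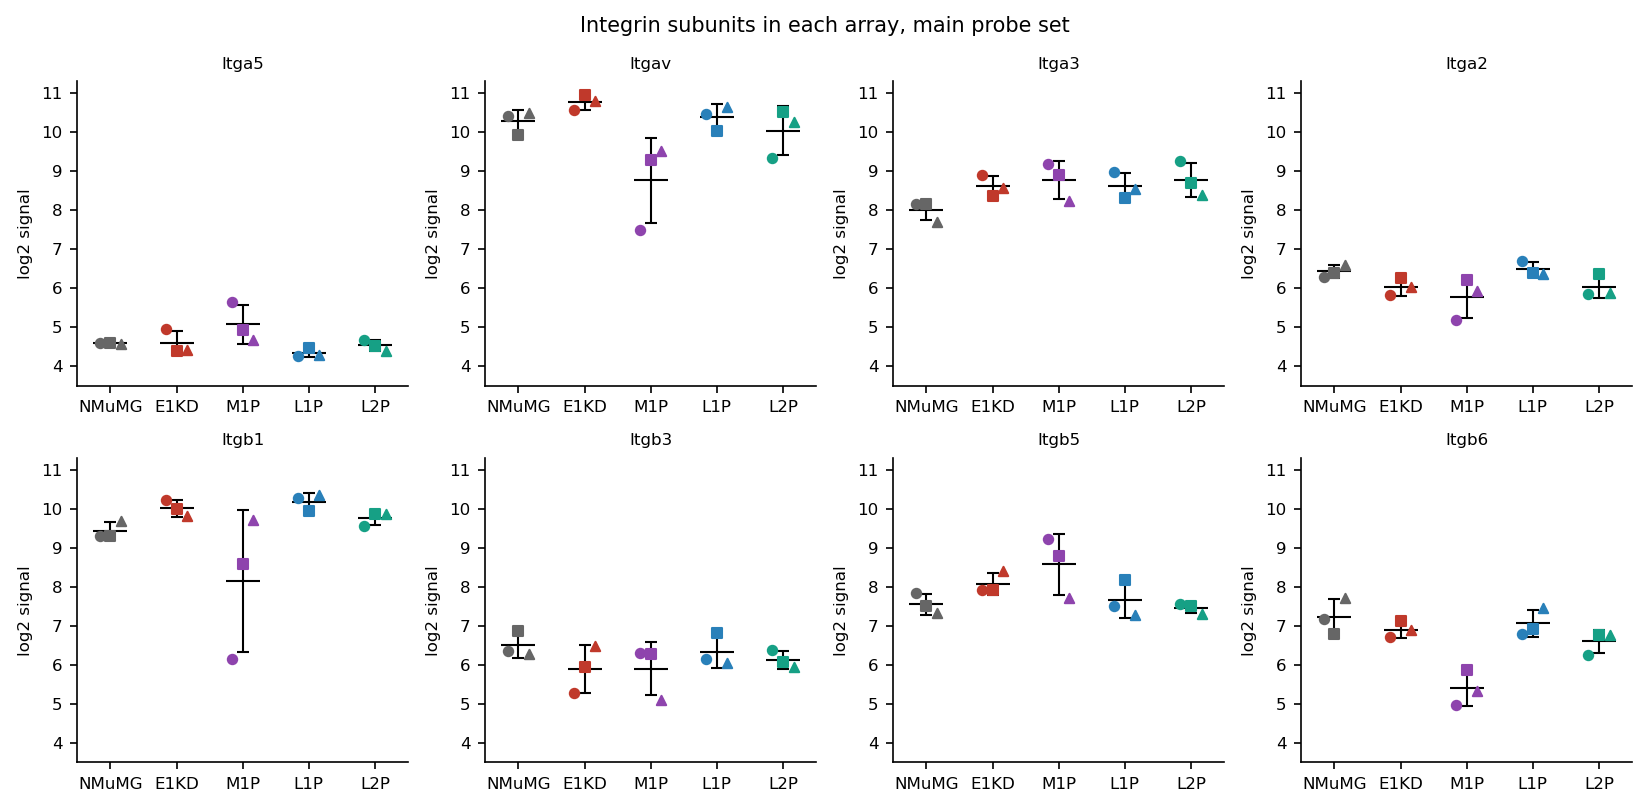
Log2 signal (vertical axes, the same range in all panels) of the main probe set of each of 8 integrin subunits in each array of the 5 lines (horizontal axes), with arrays 1, 2 and 3 of a line as circles, squares and triangles, and the mean and SD (n = 3) as bars. M1P array 1 is the lowest array for Itgav at 7.50 and for Itgb1 at 6.15, while all 3 M1P arrays of Itgb6 lie below those of the other lines.

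Itgav, Itgb1 and Itgb6, of which Itgav can pair with either beta subunit, were lower in the tumour line M1P than in E1KD. Itgb6, the beta subunit of an epithelial receptor of fibronectin and latent TGF-beta, had log2 signals of 4.98, 5.86 and 5.34 in the M1P arrays, against 6.70, 7.12 and 6.89 in the E1KD arrays. All M1P arrays lay below all arrays of the other 4 lines. Itgb6 fell by 1.51 ± 0.27 relative to E1KD, or 2.85-fold (adjusted p = 0.00406), and fell by 1.84 ± 0.27 relative to NMuMG, or 3.57-fold (adjusted p = 0.000661). When array 3 stood alone for M1P the differences were -1.57 from E1KD (adjusted p = 0.0261) and -1.89 from NMuMG (adjusted p = 0.00451). The difference from E1KD did not pass when M1P and E1KD alone were modelled (adjusted p = 0.0825) and with array weights (adjusted p = 0.102).

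The second Itgb6 probe set, 1432281_a_at, averaged highest in NMuMG and did not set M1P apart from E1KD. It had 4.59, 4.44 and 4.31 in the M1P arrays, 4.57, 5.33 and 4.70 in the E1KD arrays and 6.16, 5.10 and 5.80 in the NMuMG arrays. Relative to NMuMG it fell in M1P (-1.24 ± 0.29, adjusted p = 0.0198) and L2P (-1.12 ± 0.29, adjusted p = 0.0257). Its differences of -0.82 ± 0.29 in E1KD (adjusted p = 0.132) and -0.93 ± 0.29 in L1P (adjusted p = 0.0611) did not pass. The E1KD and L1P arrays overlapped those of NMuMG. Between M1P and E1KD its difference of -0.42 ± 0.29 did not pass (adjusted p = 0.284). Among all probe sets, 2.98% fell in M1P and 6.06% fell in L2P relative to NMuMG.

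Itgav and Itgb1 fell relative to E1KD, with widely spread M1P arrays. Itgav had 7.50, 9.29 and 9.51 in the M1P arrays, against 10.56, 10.95 and 10.81 in the E1KD arrays, so that each M1P array lay below each E1KD array. It fell by 2.01 ± 0.44 relative to E1KD (adjusted p = 0.0101) and fell by 1.51 ± 0.44 relative to NMuMG (adjusted p = 0.0422). On array 3 alone, a single array, the differences were -1.26 from E1KD (adjusted p = 0.0868) and -0.77 from NMuMG (adjusted p = 0.303). The difference from NMuMG also lost the call without M1P array 1 (-0.88, adjusted p = 0.0952) and without NMuMG array 1, 2 or 3 (adjusted p = 0.114, 0.0624 and 0.14). Itgb1, the common beta subunit, had 6.15, 8.59 and 9.70 in the M1P arrays, against 10.23, 9.996 and 9.81 in the E1KD arrays, and array 1 was lower than any other of the 15. It fell by 1.87 ± 0.60 relative to E1KD (adjusted p = 0.0385), and the difference was -0.31 with array 3 alone (adjusted p = 0.486) and -0.87 without M1P array 1 (adjusted p = 0.0553). Leaving out any 1 of the E1KD arrays gave differences of -1.76 to -1.97 with adjusted p of 0.0867, 0.105 and 0.0748 without arrays 1, 2 and 3. Whether the low signal of M1P array 1 has a part in these falls was not tested beyond these values.

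Further probe sets of these genes behaved unevenly in M1P. For Itgb1, 4 of 6 probe sets fell relative to E1KD, with differences of -0.55 to -1.87. The second brightest, 1452545_a_at, had 6.17, 7.89 and 8.90 in the M1P arrays, the same order as the main probe set. For Itgav, only the main one of 5 probe sets fell, and the others differed by -0.60 to 0.42. In all, 7 of the 32 probe sets fell and 0 rose, where 7.88% of all probe sets fell.

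**Figure D3:**
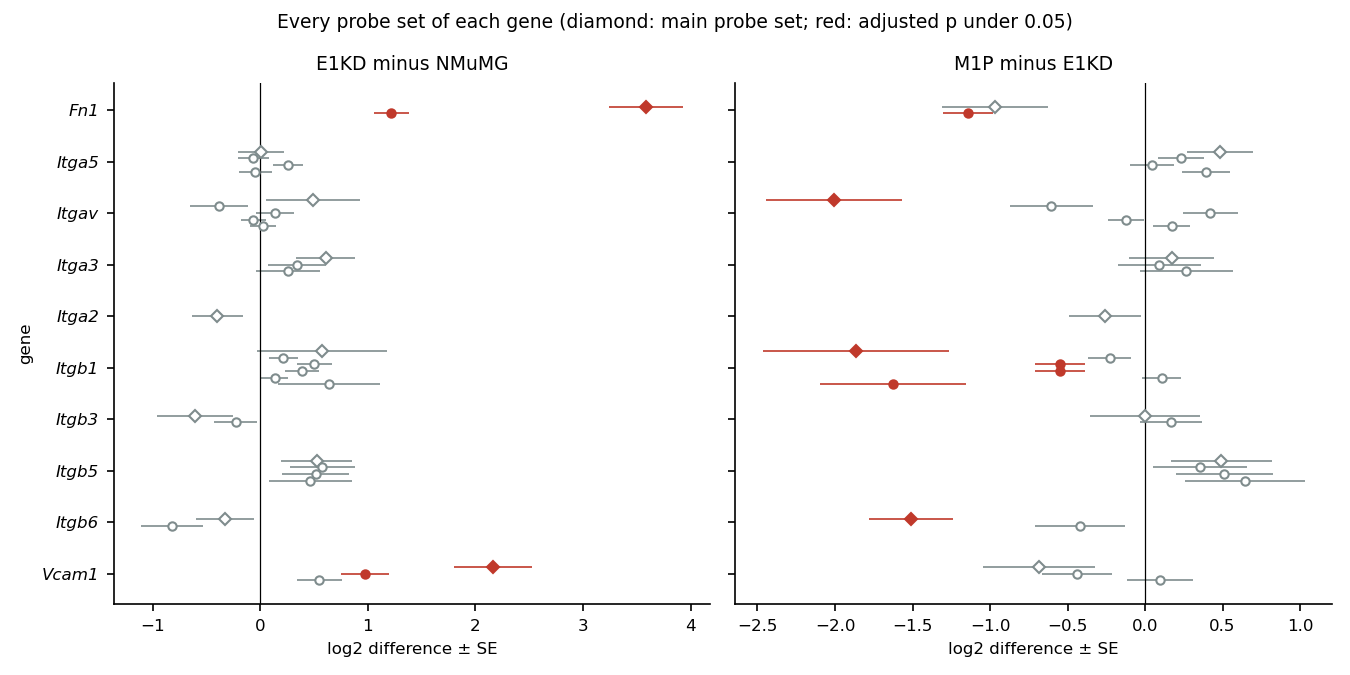
Log2 difference ± SE (horizontal axes) of each of the 32 probe sets, grouped by gene (vertical axes), for E1KD minus NMuMG on the left and M1P minus E1KD on the right, with different horizontal ranges. Diamonds are main probe sets, circles further ones, and red marks an adjusted p under 0.05. On the left red points are those of Fn1 and Vcam1, and on the right those of Fn1, Itgav, Itgb1 and Itgb6.

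Counted over the main probe sets, 3 of 10 members fell and 0 rose in M1P relative to E1KD, where 9.86% of all genes fell and 17.7% rose. The median difference was -0.47 over the 10 genes, which include these 3, and 0.20 over all genes. If array 3 stood alone for M1P, 1 of 10 was called, where 4.45% of all genes were. Relative to NMuMG, 2 members rose in M1P (Fn1 and Vcam1) and 2 fell (Itgav and Itgb6), where 7.28% of all genes rose and 4.56% fell. Itgb5, a partner of Itgav, had 9.22, 8.79 and 7.71 in the M1P arrays, against 7.92, 7.92 and 8.41 in the E1KD arrays and 7.85, 7.50 and 7.32 in the NMuMG arrays. It did not pass relative to E1KD (0.49 ± 0.33, adjusted p = 0.245) or NMuMG (1.02 ± 0.33, adjusted p = 0.0628). Itga5 likewise averaged 5.08 ± 0.50 in M1P, 0.48 ± 0.22 above E1KD (adjusted p = 0.0984), and the highest value was again that of array 1.

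The values of Itgb5 and Itga5 depended on which M1P arrays were used. Itgb5 differed from E1KD by -0.37 on M1P array 3 alone (adjusted p = 0.555) and by 0.93 without that array (adjusted p = 0.0118), so its sign turned. From NMuMG, Itgb5 differed by 0.15 on array 3 alone (adjusted p = 0.858) and by 1.45 without it (adjusted p = 0.00165). Itga5 differed by 0.08 from E1KD and from NMuMG on array 3 alone (adjusted p = 0.886 and 0.888), and by 0.69 from each without it (adjusted p = 0.0187 and 0.0272).

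The sign of Itgb1 between M1P and NMuMG turned as well, with -1.29 over all arrays (adjusted p = 0.18), 0.27 on array 3 alone (adjusted p = 0.592) and -2.07 without it (adjusted p = 0.00783). Itga3 differed from NMuMG by 0.24 on array 3 alone (adjusted p = 0.77) and by 1.05 without it (adjusted p = 0.0127), and from E1KD by -0.37 on array 3 alone (adjusted p = 0.597) beside 0.17 over all arrays. Itga2 differed by -0.09 from E1KD and by -0.49 from NMuMG on array 3 alone (adjusted p = 0.878 and 0.281), and by -0.87 from NMuMG without array 2 (adjusted p = 0.0349). Itgb3 differed by -0.78 from E1KD and by -1.39 from NMuMG on array 3 alone (adjusted p = 0.306 and 0.0611).

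Stretches of promoter sequence were looked up for the 3 subunits that fell in M1P relative to E1KD. RefSeq windows of the GRCm38.p6 build, each 300 bases across an annotated transcript start, were present for 7 of the 10 genes, and those of Itgb6, Itgav and Itgb1 are shown 5′ to 3′ on the gene's strand. Capitals mark matches, on either strand, to the GC box bound by Sp factors (GGGCGG) or to the E-box bound by Zeb and Snail repressors (CAGGTG). The AP-1 site (TGANTCA) was also searched and had no match in these windows. No matches of different motifs overlapped.
Itgb6, chr2:60722554-60722853, minus strand: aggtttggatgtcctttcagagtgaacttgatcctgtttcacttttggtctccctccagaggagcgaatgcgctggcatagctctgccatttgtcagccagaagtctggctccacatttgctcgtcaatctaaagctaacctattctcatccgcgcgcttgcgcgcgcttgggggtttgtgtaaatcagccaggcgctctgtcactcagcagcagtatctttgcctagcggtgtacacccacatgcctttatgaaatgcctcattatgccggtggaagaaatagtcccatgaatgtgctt
Itgb6, second start, inside the gene, chr2:60673644-60673943, minus strand: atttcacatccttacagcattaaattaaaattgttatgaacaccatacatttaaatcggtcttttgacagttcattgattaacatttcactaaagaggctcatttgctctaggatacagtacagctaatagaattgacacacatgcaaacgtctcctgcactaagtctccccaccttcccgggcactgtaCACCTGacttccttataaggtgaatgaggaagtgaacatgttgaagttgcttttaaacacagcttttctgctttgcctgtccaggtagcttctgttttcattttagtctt
Itgav, start inside the gene, chr2:83724147-83724446, plus strand: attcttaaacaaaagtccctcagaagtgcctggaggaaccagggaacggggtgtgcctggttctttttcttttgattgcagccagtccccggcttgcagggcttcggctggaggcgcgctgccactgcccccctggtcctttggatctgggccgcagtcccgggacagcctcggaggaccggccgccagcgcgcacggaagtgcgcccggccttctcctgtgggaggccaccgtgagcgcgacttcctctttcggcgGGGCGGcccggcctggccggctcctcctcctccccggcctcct
Itgb1, chr8:128685404-128685703, plus strand: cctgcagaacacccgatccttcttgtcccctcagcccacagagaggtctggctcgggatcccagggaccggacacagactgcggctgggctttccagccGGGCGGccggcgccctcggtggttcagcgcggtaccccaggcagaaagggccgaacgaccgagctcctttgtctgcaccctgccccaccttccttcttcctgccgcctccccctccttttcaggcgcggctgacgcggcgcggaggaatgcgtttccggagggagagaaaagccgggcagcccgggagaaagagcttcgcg

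None of the motifs searched was found in the windows of all 3 genes. The first Itgb6 window held none, and the second held 1 E-box in its reverse form. Those of Itgav and Itgb1 held 1 GC box each. Windows of members that did not fall in M1P held GC boxes as well: 2 for Itga5, 1 and 3 for Itga3, 1 for Itga2 and 3 for Itgb5. Among the 32851 windows of the RefSeq table, 35.7% held a GC box, 20.2% the E-box and 7.81% the AP-1 site. A match describes letters in a window and not a site in use.

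In the lung lines no integrin subunit passed relative to E1KD. Itgb6 had log2 signals of 6.80, 6.93 and 7.45 in the L1P arrays and 6.26, 6.77 and 6.77 in the L2P arrays, against 6.70, 7.12 and 6.89 in the E1KD arrays. Itgb1 averaged 10.19 ± 0.22 in L1P and 9.77 ± 0.17 in L2P, against 10.01 ± 0.21 in E1KD. Itgav averaged 10.39 ± 0.33 in L1P and 10.04 ± 0.62 in L2P, against 10.77 ± 0.20 in E1KD. In L1P, 1 of 10 members fell relative to E1KD (Fn1) and 0 rose, where 1.29% of all genes fell and 1.19% rose. Of the 32 probe sets 2 fell, both of Fn1, where 0.773% of all probe sets did.

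In L2P, no member passed relative to E1KD by limma, while 1.64% of all genes fell and 2.14% rose, and 1 member had an unadjusted p under 0.05 (Fn1). The second Fn1 probe set was the only one of 32 that passed, where 1.01% of all probe sets fell. Intervals for the integrins were wide: the 95% interval of the L2P difference from E1KD ran from -1.55 to 1.06 for Itgb1 and from -1.68 to 0.23 for Itgav. L2P and L1P, the lines after passage 2 and passage 1 through lung, did not differ in any member by limma, with 1 unadjusted p under 0.05 (Fn1), where 0.0934% of all genes rose and 0.0495% fell.

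Relative to NMuMG, 2 of 10 members, Fn1 and Vcam1, rose and 0 fell in each lung line. In L1P 5.02% of all genes rose and 9.76% fell, and in L2P 5.56% rose and 8.68% fell. Itgb1 had 10.27, 9.94 and 10.35 in the L1P arrays, against 9.31, 9.31 and 9.69 in the NMuMG arrays, without overlap. Its difference of 0.75 ± 0.60 had an adjusted p of 0.442 with all lines in the model. The adjusted p was 0.00921 when L1P and NMuMG alone were modelled, 0.019 with array weights and 0.0043 with array 3 alone for M1P. Itga3 lay above NMuMG in each silenced line, with differences of 0.61 for E1KD (adjusted p = 0.227), 0.78 for M1P (adjusted p = 0.0882), 0.62 for L1P (adjusted p = 0.17) and 0.78 for L2P (adjusted p = 0.084). All 12 arrays of the silenced lines exceeded the 3 NMuMG arrays for this gene, with 8.25 to 9.26 in the silenced lines against 7.70 to 8.15 in NMuMG. These 4 differences share the NMuMG arrays, and none passed. With array weights the adjusted p was 0.0363 for E1KD, 0.0147 for L1P and 0.0247 for L2P, and with array 3 alone for M1P it was 0.0311 for L2P.

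**Figure D4:**
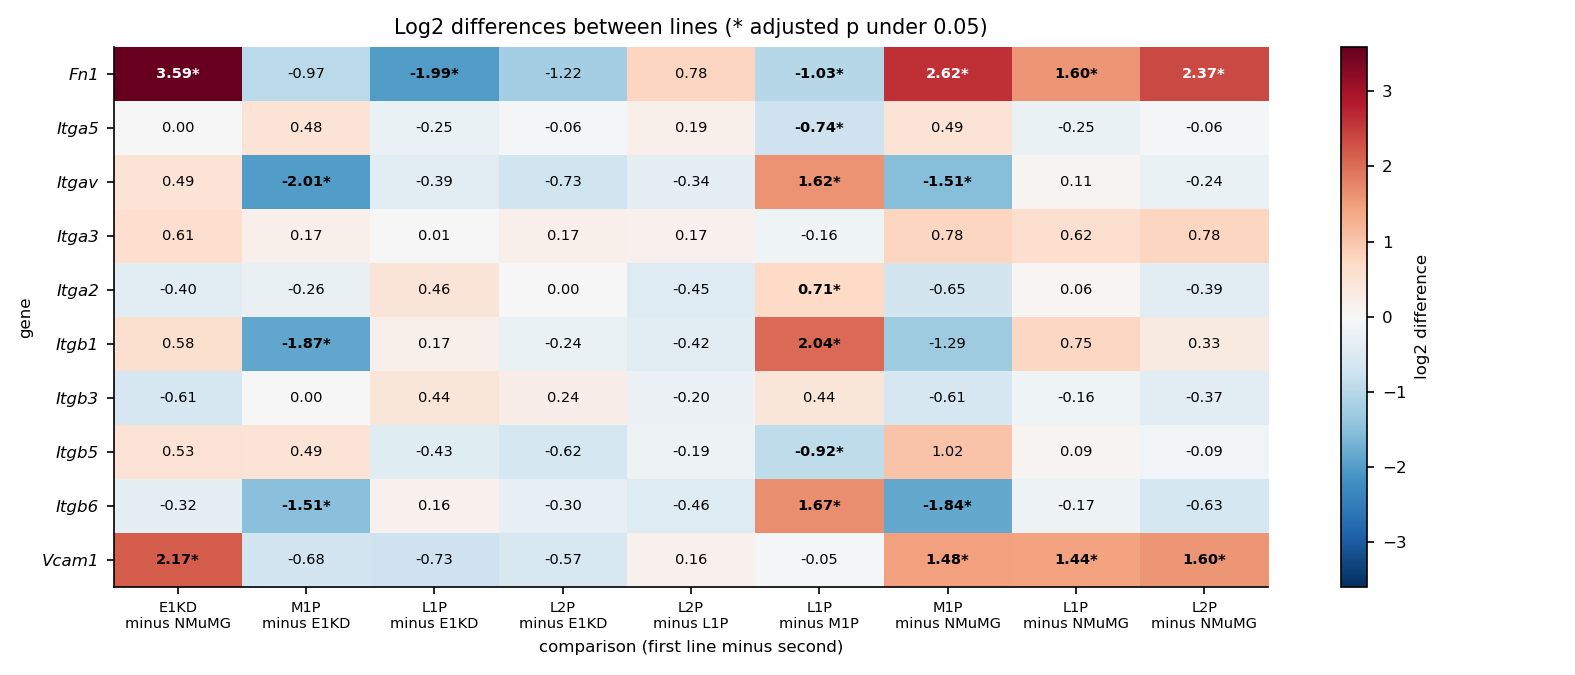
Log2 differences of the main probe set of each of the 10 genes (rows) in the 9 comparisons (columns, first line minus second), coloured from blue (lower in the first line) to red (higher), with an asterisk where the adjusted p was under 0.05. Fn1 and Vcam1 are positive in the 4 comparisons with NMuMG, and Itgav, Itgb1 and Itgb6 are negative for M1P minus E1KD.

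The lung line and the tumour line after 1 passage were also set against each other, to ask how cells recovered from the 2 sites differ. In L1P relative to M1P, 4 members rose and 3 fell, where 13.6% of all genes rose and 25.9% fell. Among cell type markers, 4 of 10 fibroblast markers fell (Col1a2, with a difference of -1.04) and 4 of 6 pericyte and smooth muscle markers (Acta2, with -1.01). So did 3 of 9 leukocyte markers (Cd14, with -1.11), 2 of 9 endothelial markers and 1 of 8 epithelial markers (Cldn3, with -0.44). None of these markers rose, and the counts stand beside the 25.9% of all genes that fell. Cd14 averaged 10.85 in M1P and 9.74 in L1P, beside 10.89 in NMuMG, a cell line without selection in mice. In fits with other processing or fewer arrays, Col1a2 passed in 8 of 15, Acta2 in 15 of 16 and Cd14 in 13 of 16. The part of these cell types in the member differences was not tested. The rises were those of Itgb1 (2.04 ± 0.60, adjusted p = 0.0221), Itgb6 (1.67 ± 0.27, adjusted p = 0.00167), Itgav (1.62 ± 0.44, adjusted p = 0.0164) and Itga2 (0.71 ± 0.23, adjusted p = 0.0325). The falls were those of Fn1, Itgb5 (-0.92 ± 0.33, adjusted p = 0.0417) and Itga5 (-0.74 ± 0.22, adjusted p = 0.0213). All of these are of main probe sets. Further probe sets of Itgav differed by 0.59, -0.49, -0.04 and -0.26, and those of Itga5 by -0.24, 0.09 and -0.32, and none passed. Those of Itgb1 differed by -0.24 to 1.79 and those of Itgb5 by -0.95 to -0.76. With the mean of all probe sets the difference was 0.285 for Itgav (adjusted p = 0.0595) and -0.30 for Itga5 (adjusted p = 0.0544). Itga2, the collagen receptor subunit, had log2 signals of 6.71, 6.40 and 6.37 in the L1P arrays, against 5.19, 6.21 and 5.94 in the M1P arrays. Among these called members, arrays of L1P and M1P overlapped for Fn1 and Itgb5 and for none of the other 5. Since these members were picked by their calls on the same arrays, this adds no support. The share of all genes without overlap was not counted. With array 3 alone for M1P Itgb6 was the only member that passed, with a difference of 1.72 (adjusted p = 0.0125), where 7.29% of all genes were called. The other differences were then 0.48 for Itgb1 (adjusted p = 0.213), 0.88 for Itgav (adjusted p = 0.189), 0.55 for Itga2 (adjusted p = 0.179), -0.06 for Itgb5 (adjusted p = 0.93) and -0.33 for Itga5 (adjusted p = 0.361). Leaving out single arrays also ended every call but that of Itgb6. The Itgb6 call was itself lost when L1P and M1P alone were modelled (adjusted p = 0.0502) and with array weights (adjusted p = 0.0581), as were the other 6, and its second probe set differed by 0.31 (adjusted p = 0.395). Without M1P array 1 the adjusted p was 0.101 for Fn1, 0.0725 for Itga5, 0.133 for Itga2 and 0.18 for Itgb5, and without M1P array 2 it was 0.098 for Fn1 and 0.0981 for Itgb5. Without L1P array 1 it was 0.0539 for Itgb1, 0.0566 for Itga5, 0.096 for Itga2 and 0.1 for Itgb5. Without L1P array 2 it was 0.108 for Fn1 and 0.058 for Itga2, and without L1P array 3 it was 0.104 for Fn1, 0.0702 for Itga5, 0.0652 for Itgav, 0.0696 for Itga2, 0.0731 for Itgb1 and 0.148 for Itgb5.

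Other genes of the same system were counted from 4 lists. Of 16 other integrin subunits measured, 0 rose and 2 fell in E1KD relative to NMuMG, where 3.00% of all genes rose and 6.49% fell. Itgb4, the beta subunit of the hemidesmosome, fell by 1.67 ± 0.36, with log2 means of 5.88 in E1KD and 7.55 in NMuMG (adjusted p = 0.00898), and Itga8 fell by 0.55 ± 0.15 (adjusted p = 0.0303). Itga8 had low log2 means of 2.40 in E1KD and 2.95 in NMuMG, under the array medians of 4.17 to 4.26. The Itga8 call was lost when any 1 of the 6 arrays was left out, with adjusted p from 0.0591 without NMuMG array 3 to 0.115 without E1KD array 3. Itgb7, a beta subunit known from lymphocytes, rose in L1P relative to E1KD by 1.59 ± 0.18 (adjusted p = 0.000232) and in L2P by 1.51 ± 0.18 (adjusted p = 0.000271). Itgb2, a leukocyte beta subunit, rose in L2P by 2.21 ± 0.33 relative to E1KD (adjusted p = 0.00159) and by 2.81 ± 0.33 relative to L1P (adjusted p = 0.0016). In all 1 of 16 rose in L1P and 3 in L2P relative to E1KD, with none falling in either. Among all genes, 1.19% rose in L1P and 2.14% in L2P. The 9 leukocyte markers averaged 4.64 to 4.94 in the L2P arrays, against 4.47 to 4.62 in the E1KD arrays, and 0 of 9 passed between these lines by limma, with 2 unadjusted p values under 0.05. Their part in the values of Itgb7 and Itgb2 was not tested.

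Among laminins and other ligands of these integrins and genes of fibronectin assembly, 1 of 19 rose and 2 fell in E1KD relative to NMuMG. Of all genes, 3.00% rose and 6.49% fell. Lamb3, a chain of the epithelial laminin bound by the Itga3 receptor, fell by 3.09 ± 0.30, with log2 means of 6.95 in E1KD and 10.04 in NMuMG (adjusted p = 2.27e-05). Ltbp1, which holds latent TGF-beta and associates with fibronectin matrix, rose by 1.18 ± 0.24 (adjusted p = 0.00588). Mfge8, a ligand of Itgav receptors, fell by 0.77 ± 0.18 (adjusted p = 0.017), but its adjusted p was 0.0737 without NMuMG array 1, 0.0745 without NMuMG array 2 and 0.0863 without E1KD array 2. Lamb3 also fell relative to NMuMG in the passaged lines, with differences of -3.60 ± 0.30 in M1P (adjusted p = 5.33e-06, and -4.28 on array 3 alone with an adjusted p of 9.22e-06), -4.32 ± 0.30 in L1P (adjusted p = 7.21e-07) and -4.17 ± 0.30 in L2P (adjusted p = 8.72e-07). A ligand that set the passaged lines apart from E1KD was Thbs1, a matrix glycoprotein that binds integrins and activates TGF-beta. Its log2 mean was 3.87 in L1P and 3.83 in L2P, against 6.71 in E1KD, and it fell relative to E1KD by 2.51 ± 0.22 in M1P (adjusted p = 3.3e-05), with differences of -2.84 in L1P (adjusted p = 9.23e-06) and -2.88 in L2P (adjusted p = 4.91e-06). Relative to E1KD, 0 of 19 rose and 3 fell in L1P, among them Ccn2, a matricellular protein, which fell by 1.74 ± 0.38 (adjusted p = 0.0292). Among all genes, 1.19% rose and 1.29% fell in L1P, and 2.14% rose and 1.64% fell in L2P. The Ccn2 call was lost when any 1 array of L1P or E1KD was left out, with adjusted p from 0.0813 without L1P array 3 to 0.133 without L1P array 2 or E1KD array 3. In L2P, 1 rose, Mfge8 by 0.81 ± 0.18 (adjusted p = 0.0245, and 0.0912, 0.088, 0.127 and 0.0724 without L2P array 1, L2P array 2, E1KD array 2 and E1KD array 3), and 3 fell, among them Tgm2, a crosslinking enzyme and fibronectin co-receptor, which fell by 2.17 ± 0.28 (adjusted p = 0.00052).

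Adaptors link integrins to the actin skeleton. In E1KD relative to NMuMG, 1 of 23 rose, Vcl (vinculin) by 0.97 ± 0.26 (adjusted p = 0.0331), and 0 fell. Of all genes, 3.00% rose and 6.49% fell. The Vcl call was lost when any 1 of the 6 arrays was left out, with adjusted p from 0.0688 without NMuMG array 2 to 0.121 without NMuMG array 1. Relative to E1KD, 0 of 23 passed in L1P and in L2P by limma, with 2 and 3 unadjusted p values under 0.05. Among all genes, 2.48% passed in L1P and 3.78% in L2P. In M1P relative to E1KD 7 of 23 rose and 4 fell, beside 17.7% and 9.86% of all genes. The kinase-like scaffold Ilk rose by 1.36 ± 0.22 (adjusted p = 0.00225) and the tetraspanin Cd151, which binds the Itga3 receptor, by 1.16 ± 0.15 (adjusted p = 0.000636). Lims1, the binding partner of Ilk, fell by 2.29 ± 0.62 (adjusted p = 0.0216), and Fermt2, a kindlin that activates integrins, fell by 1.63 ± 0.55 (adjusted p = 0.044). Without M1P array 1 neither passed, with differences of -1.51 for Lims1 (adjusted p = 0.0716) and -0.73 for Fermt2 (adjusted p = 0.0806). The Lims1 call was lost too when E1KD array 2 was left out (adjusted p = 0.0896), and that of Fermt2 without E1KD array 1, 2 or 3 (adjusted p = 0.0745, 0.11 and 0.11). On M1P array 3 alone the differences were 1.14 for Ilk (adjusted p = 0.0427), 1.14 for Cd151 (adjusted p = 0.00976), -0.78 for Lims1 (adjusted p = 0.474) and -0.56 for Fermt2 (adjusted p = 0.346).

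Of the other immunoglobulin superfamily adhesion molecules, none passed upwards in E1KD: 0 of 12 rose and 2 fell relative to NMuMG. Of all genes, 3.00% rose and 6.49% fell. The falls were those of Icam4 (-0.68 ± 0.15, adjusted p = 0.0105) and F11r, a tight junction protein (-0.50 ± 0.13, adjusted p = 0.03). The Icam4 call was lost without NMuMG array 1 (adjusted p = 0.0546), and that of F11r without any 1 of the 6 arrays, with adjusted p from 0.0649 without NMuMG array 2 to 0.122 without NMuMG array 1. In M1P relative to E1KD 3 rose and 1 fell, with Icam1 higher by 1.06 ± 0.22 (adjusted p = 0.00859) and Ncam1 differing by -1.32 ± 0.31 (adjusted p = 0.0123). In L2P relative to E1KD Ncam1 fell by 1.72 ± 0.31 (adjusted p = 0.00534), 1 of 12, where 1.64% of all genes fell. In L1P relative to E1KD 0 of 12 passed by limma, with 2 unadjusted p values under 0.05, where 2.48% of all genes passed. Of the other integrins, 3 of 16 rose and 0 fell in M1P, with Itgb4 higher than in E1KD by 2.07 ± 0.36 (adjusted p = 0.00332), and of the ligands 4 of 19 rose and 1 fell, beside 17.7% of all genes that rose and 9.86% that fell. On array 3 alone of M1P the difference from E1KD was 1.20 for Itgb4 (adjusted p = 0.0933), 0.82 for Icam1 (adjusted p = 0.138), -0.84 for Ncam1 (adjusted p = 0.0436) and -2.63 for Thbs1 (adjusted p = 0.000599). Over the other integrins, adaptors, ligands and immunoglobulin superfamily lists, 3, 11, 5 and 4 genes were called in M1P relative to E1KD with all arrays. Over all genes, 27.6% were called. On M1P array 3 alone fewer were called in each list, and the share called over all genes was lower too. Medians of the 4 lists in M1P relative to E1KD were 0.29, 0.20, 0.28 and 0.30, beside 0.20 over all genes, and in E1KD relative to NMuMG -0.05, 0.15, -0.13 and -0.13, beside -0.07.

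Markers of cell types were measured beside these genes, since fibronectin and Vcam1 are also made by fibroblasts and endothelial cells. Epithelial markers averaged 8.37 to 8.96 in the silenced lines and 8.66 to 8.71 in NMuMG. Between E1KD and NMuMG no marker passed by limma in any of the 5 lists: 0 of 8 epithelial, 0 of 10 fibroblast, 0 of 9 endothelial, 0 of 9 leukocyte and 0 of 6 pericyte and smooth muscle markers, with 2, 2, 0, 2 and 0 unadjusted p values under 0.05. The shares of all genes were 3.00% for rises and 6.49% for falls. The fibroblast markers averaged 3.23 to 3.40 in the E1KD arrays, where Fn1 was highest, against 3.43 to 3.53 in the NMuMG arrays. The endothelial markers averaged 3.27 to 3.49 in the E1KD arrays, against 3.41 to 3.48 in the NMuMG arrays. In M1P the fibroblast markers averaged 3.45 to 4.10 and the pericyte and smooth muscle markers 4.70 to 5.09, against 3.23 to 3.40 and 4.21 to 4.48 in E1KD. Of these, Col1a2 rose by 1.09 ± 0.37 (adjusted p = 0.0464) and Acta2 by 1.37 ± 0.19 (adjusted p = 0.000878). Kdr was the 1 of 9 endothelial markers that rose in M1P (0.57), and Krt19 the 1 of 8 epithelial markers (0.68). In the fibroblast list 1 of 10 rose, and in the pericyte list 2 of 6, with Cspg4 (0.46, adjusted p = 0.0308) beside Acta2. Of all genes, 17.7% rose and 9.86% fell. Called or not, 7 of 8 epithelial and 8 of 10 fibroblast markers averaged higher in M1P than in E1KD. So did 9 of 9 endothelial, 9 of 9 leukocyte and 6 of 6 pericyte markers, beside a median difference of 0.20 over all genes. The calls of Col1a2, Kdr and Krt19 were lost when 1 array was left out: Col1a2 without any E1KD array (adjusted p = 0.093, 0.129 and 0.0835), Kdr without M1P array 1 or 2 (0.13 and 0.0662) or E1KD array 2 or 3 (0.127 and 0.129), and Krt19 without M1P array 1 (0.0923) or E1KD array 1 or 2 (0.0555 and 0.0896). By limma 0 of 9 leukocyte markers passed in M1P, with 3 unadjusted p values under 0.05. On M1P array 3 alone, 1 marker of the 5 lists passed relative to E1KD, Acta2 with a difference of 1.47 (adjusted p = 0.00899), and Col1a2 differed by 0.39 (adjusted p = 0.202), Kdr by 0.38 (adjusted p = 0.433) and Krt19 by 0.32 (adjusted p = 0.455). No detection calls were used, so no marker is called absent, and the part of these cells in the M1P values was not tested.

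Genes with profiles most like those of Fn1, Vcam1 and Itgb6 over the 15 arrays were ranked by the root mean square difference of log2 signals centred on each gene's mean. For Fn1 these were Igf2r (0.548), Gpc1 (0.58), Tenm3 (0.596), Tpbg (0.607) and Gjc1 (0.612). Igf2r averaged 8.82 in E1KD, 8.69 in L2P, 8.67 in M1P and 8.05 in L1P, against 5.52 in NMuMG, and Gpc1, a cell surface heparan sulfate proteoglycan, 6.31 in E1KD against 3.81 in NMuMG. For Vcam1 the nearest were Sp8 (0.373), Tacc1 (0.376) and Aqp9 (0.378), and for Itgb6 they were Supt20 (0.292), Rffl (0.321) and B230307C23Rik (0.335). None of the 11 belonged to the 10 genes studied here. Supt20 averaged 5.73 in M1P, against 7.20 in E1KD and 7.34 in NMuMG.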

How the data were processed

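RNA of the 5 lines, 3 arrays each, was labelled by a 3′ IVT biotin protocol from 100 ng of total RNA, per the labels' protocols. The authors deposited 1 log2 signal per probe set and array, and the submitters' processing notes name RMA, MAS5 and Affymetrix Expression Console, with no versions. The log2 values, from 1.53 to 14.68, were used as deposited, with array medians of 4.17 to 4.26. No detection calls were used, and low signals are compressed, so that differences of dim probe sets are understated.

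Probe sets took their symbol from the platform annotation, updated through the RefSeq table of GRCm38.p6. Of the probe sets, 34741 had a single updated symbol, 204 a single platform symbol, 932 several, 9160 none, and 64 were controls. A gene was its probe set with the highest mean. All 15 arrays were fitted in 1 limma model (version 3.58.1, R 4.3.3) with 5 line means, 10 residual degrees of freedom and a prior of 2.98. Benjamini-Hochberg adjustment ran over 18193 genes, and further probe sets were read from a fit over 45037. Intervals are at 95%, and the number of arrays limits their precision. The 9 comparisons share lines and arrays, so they are not independent of each other. The code was tested on simulated data.

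Members and lists were chosen with earlier results of these data known. The genes named are all 10 members, up to 2 rises and 2 falls of each list, and the nearest profiles of Fn1, Vcam1 and Itgb6. The motifs were chosen after the results were known. RefSeq windows of Fn1, Itgb3 and Vcam1 were not used here, nor were Itga11, Ptk2, Fermt1, Nedd9, Spp1 and Fbn1.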

Additional observations from a re-analysis of the deposited data

Results flagged for a closer look

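For 7 of the 10 genes, on the main probe set, the difference from E1KD after 1 passage was not the same in the lung line L1P and the tumour line M1P. Between these lines 39.5% of all genes were called, and each site is represented by 1 line. The E1KD arrays cancel in this difference, so the values are those of L1P relative to M1P in the report and no further result. The difference (L1P minus M1P, log2) was -1.03 for Fn1, -0.74 for Itga5, 1.62 for Itgav, 0.71 for Itga2, 2.04 for Itgb1, -0.92 for Itgb5 and 1.67 for Itgb6. With array 3 as the only M1P array the difference passed for Itgb6, and not for the other 6. With array weights, or with only L1P and M1P in the model, 0 of the 7 passed by limma.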

How the results depend on the processing

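Besides leaving out single arrays, 10 alternatives were run for each comparison. Of 21 member differences that passed, 7 passed under every alternative run: Fn1 and Vcam1 in E1KD, Fn1 in L1P and Fn1 and Vcam1 in L2P relative to NMuMG, Itgb6 in M1P relative to NMuMG, and Fn1 in L1P relative to E1KD. The other 14 missed the threshold under at least 1, 20 of the 69 that did not pass did so under at least 1. None of the 21 changed sign under these alternatives or without single arrays, but some of the 69 did, among them Itgb5 and Itga3 in M1P relative to E1KD and Itgb1 in M1P relative to NMuMG. Where no share of all genes stands beside a count below, its move cannot be told from a change in calls over all genes. Counts of members called that moved by more than 1.5 times were these. With array weights, whose estimation stopped before it converged in 1 fit, E1KD and NMuMG gave 4 in place of 2, M1P and E1KD 0 in place of 3, L1P and E1KD 3 in place of 1, L2P and E1KD 2 in place of 0, L1P and M1P 0 in place of 7, M1P and NMuMG 1 in place of 4, L1P and NMuMG 4 in place of 2 and L2P and NMuMG 4 in place of 2. Smaller gains included those of Itgb1 in E1KD (adjusted p = 0.0381) and L1P (0.00921) relative to NMuMG with only the lines compared, of Itgb1 in the same lines (0.0247 and 0.0043) and Itga3 in L2P (0.0311) relative to NMuMG with array 3 alone for M1P, and of Fn1 in M1P relative to E1KD (0.00129) and Itgb6 in L2P relative to NMuMG (0.031) with the mean of all probe sets. With only the lines compared in the model, M1P and E1KD gave 0, where 0.368% of all genes were called, L1P and M1P 0 (1.58% of all genes) and M1P and NMuMG 2. With array weights 0.901% of all genes were called between M1P and E1KD and 2.39% between L1P and M1P. With array 3 alone for M1P, M1P and E1KD gave 1, L2P and E1KD 1, L1P and M1P 1 and M1P and NMuMG 2. With the mean of all probe sets, L2P and E1KD gave 1, L1P and M1P 4 and L1P and NMuMG 1. Leaving out single arrays gave 2 to 5 for M1P and E1KD, 1 to 7 for L1P and M1P, 2 to 8 for M1P and NMuMG, 1 to 2 for L1P and NMuMG and 3 to 8 for the F test, with 8 without M1P replicate 3, and the main counts for the other comparisons. Replicate numbers did not pair the arrays: same-numbered arrays correlated at -0.50 to 0.62 in their deviations, 13 of 27 pairs were over 0.1, and in 0 of 9 comparisons did every array match its own number best. With the replicate number as a block, the counts were 3 for E1KD and NMuMG, 4 for M1P and E1KD, 1 for L1P and E1KD, 1 in place of 0 for L2P and E1KD, 0 for L2P and L1P, 7 for L1P and M1P, 6 for M1P and NMuMG, 3 for L1P and NMuMG, 3 for L2P and NMuMG and 5 for the F test. Itga3 then passed relative to NMuMG in E1KD (adjusted p = 0.0479), M1P (0.0134), L1P (0.0337) and L2P (0.0106). Epcam in M1P relative to NMuMG was -0.0984 with the probe set of largest variance, in place of 0.54, the cause of which was not tested. Itga5 lay under the median signal, so the filter on low signal tested 9 of the 10 members.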
